A study of Mus musculus with 12 samples.

Results

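The BCL2 family decides whether a cell keeps or loses the outer membrane of its mitochondria, the step that commits it to apoptosis. Pro-survival members (BCL2, BCL2A1, BCL-XL and MCL1) hold the effectors BAX and BAK in check, and BH3-only members such as BIM and BID tip the balance by binding the pro-survival proteins or by activating the effectors. In macrophages the family is known for setting survival during differentiation on M-CSF and during inflammation. The 10 genes described here are Bcl2, Bcl2a1a, Bcl2a1b, Bcl2a1d, Bcl2l1, Mcl1, Bcl2l11, Bid, Bax and Bak1. They were taken by symbol from the 56748 genes of the deposited count table, and the 3 near-identical Bcl2a1 copies were also summed.

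The libraries came from bone marrow-derived macrophages (BMDM) of female C57BL/6J mice, grown with 20 ng/mL M-CSF. They were made M2-like with 10 ng/mL IL4 over 48 hours, and the exposures that followed lasted 72 hours. There were 3 libraries in each of 4 conditions. Untreated control BMDM received medium without addition, and rIFNβ BMDM received recombinant IFNβ at 1500 pg/mL. YUMM5.2 is a mouse melanoma line, and the donor lines carried a Dox-inducible construct for eGFP alone or for Ifnb1 with eGFP. Supernatant was taken from these lines after 72 hours in Dox at 1 μg/mL, so both supernatants can carry Dox and tumor cell products, which the other 2 conditions lacked. The Ifnb1eGFP line's medium was set to 1500 pg/mL IFNβ by dilution, and eGFP supernatant was diluted by the same ratio. Mice were 10 to 12 weeks old at purchase, and their age at marrow isolation was not given in the sources used here. The design text counts 3 mice per condition, and the p-values measure the spread between these libraries.

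Library totals ran from 31526034 to 45348457 counts. All 6 macrophage markers were present, and their sum was 14060 to 18390 CPM in unexposed and 8515 to 9286 CPM in exposed libraries. Of these, Lyz2 (−1.59 and −1.44 on the log2 scale) and Itgam (−1.99 and −2.17) fell in the 2 IFNβ comparisons, Adgre1, Cd68 and Mertk rose by 0.18 to 0.50, and Csf1r did not pass, and the part of these shifts in the results was not tested. T cell markers had at most 3 counts in every library. Of 4 markers of IL4 polarization, Mrc1 (609 to 839 CPM), Chil3 (63.2 to 129 CPM) and Retnla (45.4 to 71.3 CPM) were present in every library, and Arg1 stayed under 1 CPM. Chil3 rose by 0.77 and 0.67 in the 2 IFNβ comparisons. Irf7, Isg15, Ifit1 and Rsad2, checked as IFNβ response genes, summed to 4739 to 5661 CPM in the 6 IFNβ-exposed libraries and to 34.2 to 364 CPM in the 6 unexposed ones. The 364 CPM belonged to replicate 2 of eGFP supernatant, in which Rsad2 was at 228 CPM against 20.3 to 46.4 CPM in the other 5 unexposed libraries. Values with this library left out are given beside the first comparison.

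All positions are those of GRCm39. Bcl2 (ENSMUSG00000057329) lies on the minus strand of chromosome 1, 106465908 to 106642060. Bcl2l1 (ENSMUSG00000007659, minus) and Bcl2l11 (ENSMUSG00000027381, plus) lie on chromosome 2, at 152622582 to 152673655 and 127967958 to 128004476. Mcl1 (ENSMUSG00000038612) covers 95566026 to 95570487 of the plus strand of chromosome 3. Bid (ENSMUSG00000004446) covers 120862525 to 120894171 of the minus strand of chromosome 6, and Bax (ENSMUSG00000003873) 45111015 to 45116325 of the minus strand of chromosome 7. Bak1 (ENSMUSG00000057789) covers 27238784 to 27247983 of the minus strand of chromosome 17. The Bcl2a1 copies share chromosome 9, with Bcl2a1d (ENSMUSG00000099974) at 88605338 to 88613967 on the minus strand. Bcl2a1a (ENSMUSG00000102037) lies at 88838953 to 88844472 and Bcl2a1b (ENSMUSG00000089929) at 89081262 to 89089889, both on the plus strand.

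The sequences of the Bcl2a1 copies matter here because their counts depend on how reads were divided between them. Each copy has a coding sequence of 519 bases. Bcl2a1a and Bcl2a1b differ at 11 of these bases (97.9% identity), Bcl2a1a and Bcl2a1d at 7 (98.7%) and Bcl2a1b and Bcl2a1d at 6 (98.8%). Coding bases 1 to 100 hold 7 of the 12 positions at which the copies differ, and are shown from the GENCODE M39 transcripts (GRCm39) with those positions in capitals.
Bcl2a1a: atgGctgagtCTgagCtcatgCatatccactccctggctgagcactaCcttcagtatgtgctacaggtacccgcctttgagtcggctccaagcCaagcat
Bcl2a1b: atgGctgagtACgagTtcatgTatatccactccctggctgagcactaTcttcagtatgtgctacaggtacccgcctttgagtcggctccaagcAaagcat
Bcl2a1d: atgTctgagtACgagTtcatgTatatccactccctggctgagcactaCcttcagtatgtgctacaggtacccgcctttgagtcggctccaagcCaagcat

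A read that lies wholly in a lower-case stretch cannot be placed on 1 copy. Over the whole transcripts, 57.1% of the 50-base words of Bcl2a1b, 67.7% of those of Bcl2a1a and 79.5% of those of Bcl2a1d also occurred in another copy. RSEM divides such reads between genes by estimated abundance. Counts that were not whole numbers occurred in 11 or 12 of the 12 libraries for each Bcl2a1 copy, for Bax and for Bak1, in 3 for Bcl2, in 2 for Bid and in none for Bcl2l1, Mcl1 and Bcl2l11. The values of single Bcl2a1 copies depend on this division and their sum does not, although reads shared with genes outside the 3 copies can still affect it.

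Upstream of the copies, the RefSeq promoters (GRCm38.p6) are also nearly alike. The stretch below was chosen because it separates Bcl2a1d from the other copies, and the capitals mark 6 bases that Bcl2a1a and Bcl2a1b carry and Bcl2a1d lacks.
Bcl2a1a, chr9:88956767-88956852, plus strand: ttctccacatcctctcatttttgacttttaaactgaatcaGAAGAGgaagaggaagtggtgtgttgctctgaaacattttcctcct
Bcl2a1b, chr9:89199076-89199161, plus strand: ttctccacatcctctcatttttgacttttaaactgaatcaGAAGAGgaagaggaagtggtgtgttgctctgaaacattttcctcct
Bcl2a1d, chr9:88731918-88731997, minus strand: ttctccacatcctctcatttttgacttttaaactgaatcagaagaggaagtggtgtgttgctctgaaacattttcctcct

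All 10 genes had at least 1 promoter among the RefSeq promoters, 13 in all, each from 250 bases before to 50 bases after a start site. On either strand, GAAANNGAA, the core of the element bound by ISGF3 and by interferon regulatory factors, was found in 0 of the 13, against 8.56% of all 32851 promoters. TTCNNNGAA, the element bound by STAT dimers, was also found in 0 of the 13, against 8.30% of all promoters. This says only that these letters do not occur in these windows.

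Levels are given as CPM, the usual unit of counts scaled to the library's total (here after TMM scaling), and as CPM per kb of merged exons where genes are compared with each other. In untreated control BMDM, Mcl1 was the most abundant member per length, at 138 ± 5.53 CPM per kb (SD, n = 3), followed by Bcl2a1b at 118 ± 3.67 CPM per kb. Bax (52.4 ± 0.695 CPM per kb), Bak1 (39.6 ± 1.13) and Bcl2l1 (34.5 ± 1.17) came next, each separated from its neighbour by more than its SD. The remaining genes were lower, with Bcl2a1d at 9.96 ± 0.999, Bcl2l11 at 5.97 ± 0.0223, Bid at 4.36 ± 0.178, Bcl2 at 2.77 ± 0.205 and Bcl2a1a at 2.09 ± 0.819 CPM per kb. Bcl2 and Bcl2a1a did not differ beyond their spread. With Ifnb1eGFP supernatant, Mcl1 stood at 246 ± 17.9, Bcl2a1b at 87.6 ± 5.44, Bak1 at 58.1 ± 9.09 and Bax at 38.1 ± 5.49 CPM per kb. By this length Bak1 and Bax had changed places. By the longest coding transcript they did not differ beyond their spread, with Bax at 64.3 ± 9.26 and Bak1 at 58.6 ± 9.17 CPM per kb. In untreated control too, the order of the middle genes depended on the exon length used. There, counting only the longest coding transcript put Bcl2l1 above Bak1 and Bcl2l11 above Bcl2a1d.

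**Figure D1:**
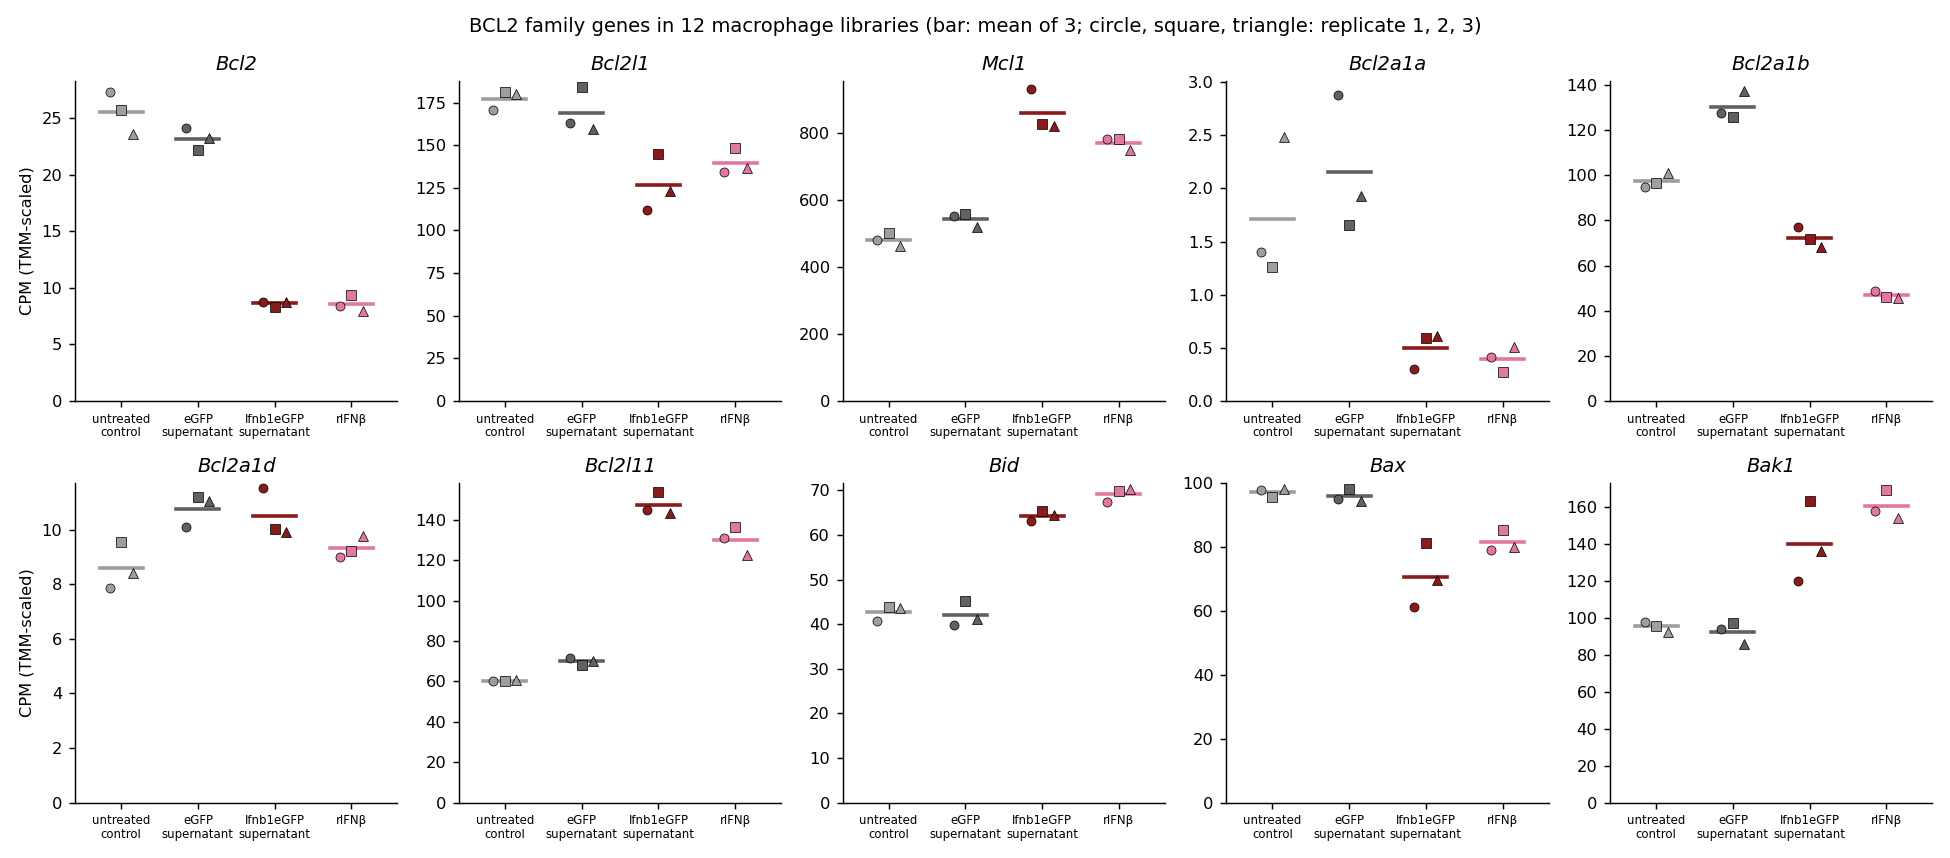
CPM of the 10 BCL2 family genes (y axis, linear from 0, a scale for each gene) in the 12 libraries by condition (x axis). Circles, squares and triangles are replicates 1, 2 and 3, and bars are means of 3; Bcl2 lies at 7.93 to 9.33 CPM in the 6 IFNβ-exposed libraries and at 22.2 to 27.3 CPM in the 6 unexposed ones.

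The comparison of Ifnb1eGFP with eGFP supernatant asks what tumor-derived IFNβ did, with supernatant of the eGFP line as the control. Against eGFP supernatant, 9 of the 10 genes had an adjusted p of at most 0.05 (edgeR's quasi-likelihood test, Benjamini-Hochberg adjustment, 15033 genes tested). Mcl1, Bcl2l11, Bid and Bak1 rose (4) and Bcl2, Bcl2a1a, Bcl2a1b, Bcl2l1 and Bax fell (5), whereas Bcl2a1d did not pass. Of all genes tested, 55.1% passed, 30.1% higher and 25% lower, so that passing is common here. The comparison of rIFNβ with untreated control asks the same of IFNβ without tumor cell products. It gave the same 9 genes in the same directions, where 55.3% of all genes passed, 30.7% higher and 24.6% lower. The libraries of the groups compared did not overlap for the same 9 genes in either comparison, as for 59% and 66.1% of all genes. The 2 comparisons share no library, but they come from the same fit, and same-numbered libraries deviated alike in part. They are therefore not taken as independent of each other. The median log2 fold change was −0.23 and −0.07 for the 10 genes, against 0.03 and 0.04 for all genes tested. Without replicate 2 of eGFP supernatant, 9 genes passed in the first comparison as well. These are bulk libraries, in which fewer cells of a type and less RNA per cell cannot be told apart.

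Bcl2, the founding pro-survival member, fell most among the genes with ample counts. It was at 27.3, 25.7 and 23.6 CPM without treatment, at 24.2, 22.2 and 23.3 CPM under eGFP supernatant, at 8.72, 8.34 and 8.80 CPM under Ifnb1eGFP supernatant and at 8.37, 9.33 and 7.93 CPM under rIFNβ. No exposed library came near an unexposed one, and the libraries of the IFNβ sources lay in the same range. The log2 fold change was −1.43 ± 0.0752 (SE) for Ifnb1eGFP against eGFP supernatant, a 2.69-fold lower level (adjusted p = 3.24e-08, edgeR). For rIFNβ against untreated control it was −1.58 ± 0.0757, a 2.98-fold lower level (adjusted p = 1.34e-08). Between the IFNβ sources the difference was 0.01 (95% interval −0.16 to 0.18, adjusted p = 0.971). T cell markers, whose cells also express Bcl2, had at most 3 counts in each library. Markers of other cells were low, and some of them fell with IFNβ as well. Zbtb46, of dendritic cells, was at 1.19 to 1.61 CPM in unexposed and 0.247 to 0.354 CPM in exposed libraries, and Klrb1c, of NK cells, at 0.191 to 0.577 and 0 to 0.0297 CPM. The summed fibroblast markers were at 14.3 to 30.3 and 10.3 to 14.7 CPM, ranges that overlap. Of these 3 markers, 1 and 2 were called lower in the 2 IFNβ comparisons and 0 higher. Col1a1 alone did not overlap, at 10.57 to 22.61 CPM in unexposed and 6.675 to 9.51 CPM in exposed libraries. The 1 melanoma marker tested was not called in either IFNβ comparison. B cell and mast cell markers had too few counts to be tested. The part of these cells in the Bcl2 result was not tested.

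The summed Bcl2a1 copies, which encode a short-lived pro-survival protein of myeloid cells, differed between the IFNβ sources, which no other pro-survival gene was called for. In untreated control the sum was 104, 107 and 112 CPM, and with eGFP supernatant it was 141, 139 and 150 CPM. It was 89.0, 82.3 and 78.7 CPM with Ifnb1eGFP supernatant and 58.3, 55.5 and 56.1 CPM with rIFNβ. The 4 conditions did not overlap at any point, with eGFP supernatant highest and rIFNβ lowest. In comparisons of single pairs of conditions, 12.8% to 66.1% of all genes tested did not overlap. The share with all 4 conditions apart was not counted, which holds for Bcl2a1b and Bcl2l11 below as well.

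The sum fell by 0.78 (SE 0.0530) on the log2 scale for Ifnb1eGFP against eGFP supernatant (adjusted p = 2.51e-07, edgeR) and by 0.93 (SE 0.0536) for rIFNβ against untreated control (adjusted p = 5.85e-08). It was higher with supernatant at either IFNβ state. eGFP supernatant stood above untreated control by 0.41 on the log2 scale (SE 0.0528, adjusted p = 0.00875), and Ifnb1eGFP supernatant above rIFNβ by 0.56 (SE 0.0534, adjusted p = 0.00169). Both calls can be lost, the first without replicate 1 of untreated control (adjusted p = 0.0512) and the second when these conditions were fitted alone (0.57, adjusted p = 0.0906). Averaged over both IFNβ states, the sum was 1.40-fold higher with supernatant (log2 fold change 0.48, adjusted p = 0.000154). The interaction of IFNβ and supernatant was 0.15 (95% interval −0.02 to 0.31, adjusted p = 0.926). Of 5 neutrophil markers, S100a8 alone had enough counts to be tested. It was at 4.19 to 5.72 CPM in unexposed libraries and fell in the 2 IFNβ comparisons (log2 fold change −3.35 and −4.16), and the other 4 were at most at 0.253 CPM in every library. The part of neutrophils in the Bcl2a1 result was not tested.

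Bcl2a1b carried most of the sum. It was at 94.9, 96.6 and 101 CPM without treatment, at 128, 126 and 137 CPM under eGFP supernatant, at 77.1, 71.7 and 68.2 CPM under Ifnb1eGFP supernatant and at 48.9, 46.0 and 45.8 CPM under rIFNβ. As for the sum, no libraries of different conditions overlapped. It fell by 0.85 (SE 0.0548) for Ifnb1eGFP against eGFP supernatant (adjusted p = 1.66e-07, edgeR) and by 1.06 (SE 0.0556) for rIFNβ against untreated control (adjusted p = 2.76e-08).

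Bcl2a1d did not follow Bcl2a1b. It was at 7.85, 9.54 and 8.40 CPM without treatment, at 10.1, 11.2 and 11.0 CPM under eGFP supernatant, at 11.5, 10.0 and 9.90 CPM under Ifnb1eGFP supernatant and at 8.99, 9.22 and 9.78 CPM under rIFNβ. Exposed and unexposed libraries overlapped in both comparisons. The difference was −0.04 for Ifnb1eGFP against eGFP supernatant (95% interval −0.23 to 0.15, adjusted p = 0.723, edgeR) and 0.12 for rIFNβ against untreated control (95% interval −0.08 to 0.32, adjusted p = 0.292). These intervals leave out a fall of the size of that of Bcl2a1b.

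Bcl2a1a was scarce, with 43 to 114 counts in unexposed and 12 to 28 counts in exposed libraries. Its CPM was 1.40, 1.26 and 2.48 in untreated control, 2.88, 1.66 and 1.93 with eGFP supernatant, 0.303, 0.596 and 0.608 with Ifnb1eGFP supernatant and 0.415, 0.270 and 0.505 with rIFNβ. All exposed libraries lay below all unexposed ones. It fell by 2.09 (SE 0.360) and 2.13 (SE 0.379) on the log2 scale in the 2 IFNβ comparisons (adjusted p = 0.000446 and 0.000542, edgeR), the largest changes among the 10 genes and also the least certain. Under a stricter rule, a log2 change of 2 or more in size and an adjusted p not above 0.01, it alone of the 10 passed, beside 5.39% and 5.77% of all genes. It no longer met that rule without replicate 1 of either supernatant (−1.82 and −1.87), or without replicate 3 of untreated control or replicate 2 of rIFNβ (−1.75 and −1.90). In the supernatant comparisons 0 of the 10 genes met that rule, and at most 0.00665% of all genes did.

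The division of the summed counts between the copies shifted accordingly. Bcl2a1b held 90.4% ± 0.608 (SD, n = 3) of them in untreated control, 91.0% ± 0.345 with eGFP supernatant, 86.8% ± 0.260 with Ifnb1eGFP supernatant and 82.8% ± 1.11 with rIFNβ. Bcl2a1d held 7.98% ± 0.783, 7.53% ± 0.477, 12.6% ± 0.403 and 16.5% ± 1.02, and Bcl2a1a at most 2.23% in any library. The log2 ratio of Bcl2a1b to Bcl2a1d was 0.99 lower in the 6 exposed than in the 6 unexposed libraries (2.23 to 2.84 against 3.34 to 3.66). The log2 ratio of Bcl2a1a to Bcl2a1b was 1.16 lower with IFNβ. These ratios were chosen after the values of the genes were seen and are given as descriptions, with no test. The exons of Gm29094 share 401 bases with those of Bcl2a1b on the same strand, and this gene was at 12.5 to 20.3 CPM. Its log2 difference was 0.25 (adjusted p = 0.153, edgeR) and 0.01 (adjusted p = 0.951) in the 2 IFNβ comparisons. With its counts added, the sum still fell, by 0.64 and 0.78.

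**Figure D2:**
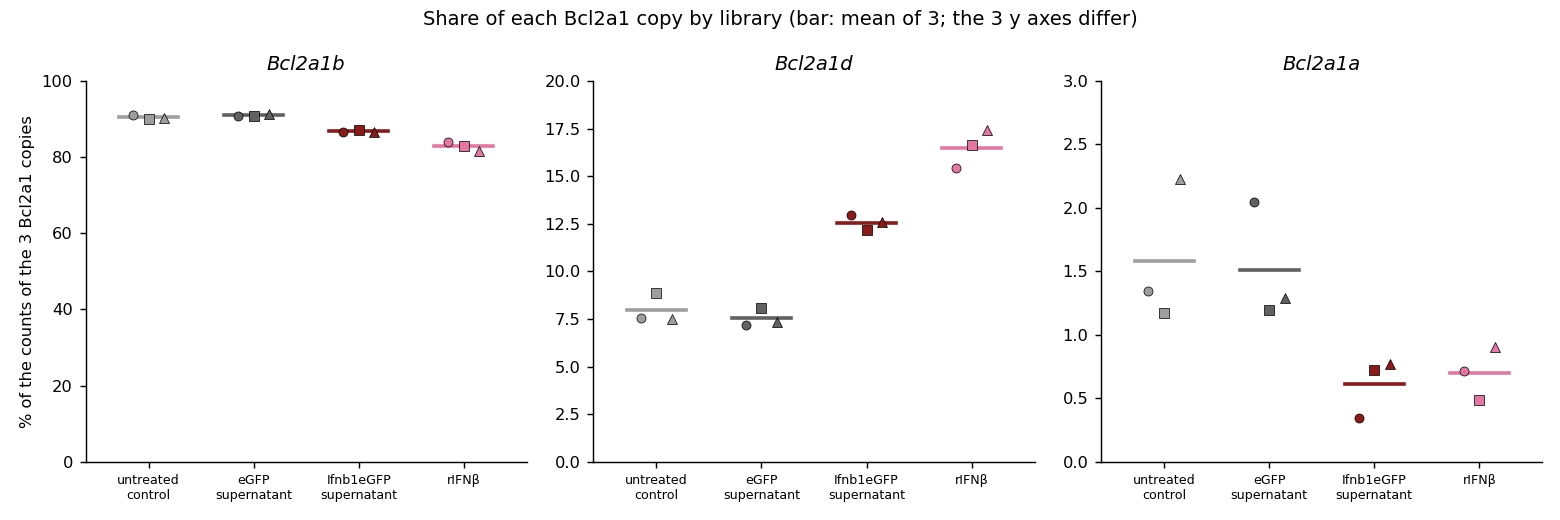
Share of each Bcl2a1 copy in the summed counts of the 3 copies (y axis, percent, a scale for each copy) in the 12 libraries by condition (x axis), with symbols for replicates 1, 2 and 3 and bars for means of 3. The share of Bcl2a1d lies at 7.16% to 8.89% in the unexposed libraries, 12.2% to 13.0% with Ifnb1eGFP supernatant and 15.4% to 17.4% with rIFNβ.

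Bcl2l1, which encodes the pro-survival BCL-XL, fell modestly. It was at 170, 181 and 180 CPM without treatment, at 163, 184 and 160 CPM under eGFP supernatant, at 112, 145 and 123 CPM under Ifnb1eGFP supernatant and at 134, 148 and 137 CPM under rIFNβ. The exposed libraries stayed below the unexposed ones, with the widest spread under Ifnb1eGFP supernatant. The log2 fold change was −0.42 ± 0.0881 (adjusted p = 0.00187, edgeR) and −0.34 ± 0.0881 (adjusted p = 0.00595) in the 2 IFNβ comparisons. Splice forms of Bcl2l1 with opposed functions are not separated by counts per gene.

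Mcl1 was the one pro-survival gene that rose. MCL1 protein turns over quickly, so that its level depends on continued synthesis. Mcl1 was at 479, 500 and 462 CPM without treatment, at 553, 558 and 518 CPM under eGFP supernatant, at 931, 826 and 819 CPM under Ifnb1eGFP supernatant and at 782, 780 and 747 CPM under rIFNβ. Every exposed library exceeded every unexposed one. Mcl1 rose 1.58-fold for Ifnb1eGFP against eGFP supernatant (log2 fold change 0.66 ± 0.0574, adjusted p = 1.84e-06, edgeR) and 1.60-fold for rIFNβ against untreated control (0.68 ± 0.0574, adjusted p = 1.34e-06). Of all genes, 55.1% and 55.3% passed in these comparisons. Of 3 genes that control MCL1 protein turnover, 0 passed with Ifnb1eGFP supernatant and 1 with rIFNβ. This was Huwe1, a ubiquitin ligase of MCL1, at 297, 183 and 162 CPM without treatment and 154, 151 and 124 CPM under rIFNβ (log2 difference −0.58, adjusted p = 0.0250, edgeR). That call rests on single libraries, with −0.27 without replicate 1 of untreated control (adjusted p = 0.100) and −0.49 without replicate 3 of rIFNβ (adjusted p = 0.0922).

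Among the BH3-only genes, Bcl2l11 rose most. It encodes BIM, which binds all pro-survival members. Bcl2l11 was at 60.2, 60.3 and 60.6 CPM without treatment, at 71.4, 68.4 and 69.9 CPM under eGFP supernatant, at 145, 154 and 144 CPM under Ifnb1eGFP supernatant and at 131, 136 and 123 CPM under rIFNβ. The 4 conditions did not overlap. It rose 2.11-fold (log2 fold change 1.08 ± 0.0463, adjusted p = 6.51e-09, edgeR) for Ifnb1eGFP against eGFP supernatant and 2.16-fold (1.11 ± 0.0466, adjusted p = 4.83e-09) for rIFNβ against untreated control.

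Bid encodes a BH3-only protein that caspase-8 cleaves, which links death receptors to mitochondria. It was at 40.7, 43.8 and 43.7 CPM without treatment, at 39.9, 45.1 and 41.2 CPM under eGFP supernatant, at 63.1, 65.5 and 64.5 CPM under Ifnb1eGFP supernatant and at 67.4, 69.9 and 70.2 CPM under rIFNβ. Exposed libraries lay well above unexposed ones. Bid rose 1.53-fold (log2 fold change 0.61 ± 0.0510, adjusted p = 1.29e-06, edgeR) and 1.62-fold (0.70 ± 0.0511, adjusted p = 4.23e-07). Its exons overlap those of Bcl2l13 on the opposite strand over 3059 bases, and the strand setting of the counting was not given in the sources used here. Bcl2l13 was at 36.3 to 42.6 CPM in all libraries.

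The effectors Bax and Bak1 went in opposite directions. Bax was at 97.7, 95.7 and 98.2 CPM without treatment, at 94.9, 98.2 and 94.3 CPM under eGFP supernatant, at 61.1, 81.4 and 69.7 CPM under Ifnb1eGFP supernatant and at 79.2, 85.4 and 80.0 CPM under rIFNβ. Bak1 was at 97.9, 95.5 and 92.5 CPM without treatment, at 93.7, 97.4 and 85.7 CPM under eGFP supernatant, at 120, 163 and 136 CPM under Ifnb1eGFP supernatant and at 158, 169 and 154 CPM under rIFNβ. Neither gene's exposed libraries overlapped its unexposed ones, and in replicate 1 of Ifnb1eGFP supernatant both genes were at their lowest among exposed libraries.

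Bax fell by 0.44 (SE 0.0816) on the log2 scale for Ifnb1eGFP against eGFP supernatant (adjusted p = 0.000773, edgeR) and by 0.25 (SE 0.0815) for rIFNβ against untreated control (adjusted p = 0.0205). The second call was lost, with an adjusted p up to 0.0700, when replicate 3 of untreated control or replicate 1 or 3 of rIFNβ was left out. Bak1 rose 1.52-fold (log2 fold change 0.60 ± 0.0941, adjusted p = 0.000217) and 1.68-fold (0.75 ± 0.0943, adjusted p = 3.66e-05).

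In each IFNβ-exposed condition, the ratio of Bak1 to Bax within a library was steadier than the level of either gene. In untreated control it was not, and its SD on the log2 scale was 0.0496, against 0.0202 with Ifnb1eGFP supernatant and 0.0266 with rIFNβ. The log2 ratio of Bak1 to Bax was −0.14 to 0.00 in the 6 unexposed and 0.95 to 1.01 in the 6 exposed libraries, 1.02 higher with IFNβ. Replicate 1 of Ifnb1eGFP supernatant, with its low levels of both, had a ratio of 0.97, within the range of the other exposed libraries. The log2 ratio of Bcl2l11 to Bcl2 was 1.14 to 1.62 in unexposed and 3.87 to 4.20 in exposed libraries, 2.60 higher with IFNβ. Both ratios were formed from genes already seen to move apart and carry no test. A ratio of counts depends on the lengths of both genes, so that its change between conditions and not its value compares the genes.

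**Figure D3:**
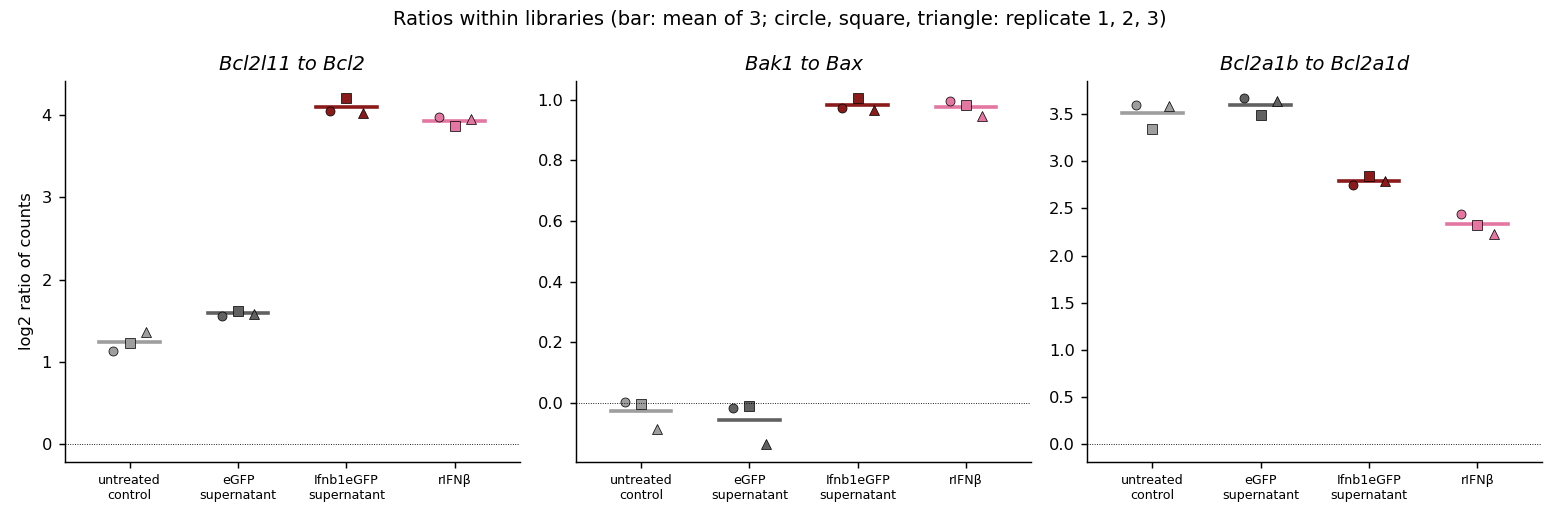
Log2 ratio of counts within each library (y axis) for Bcl2l11 to Bcl2, Bak1 to Bax and Bcl2a1b to Bcl2a1d by condition (x axis), with symbols for replicates 1, 2 and 3 and bars for means of 3. In each panel the 6 IFNβ-exposed libraries are separated from the 6 unexposed ones, above them in the first and second and below them in the third.

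The comparison of Ifnb1eGFP supernatant with rIFNβ asks whether the source of IFNβ mattered at 1 nominal concentration. These conditions also differ in tumor cell products and possibly Dox, which cannot be told apart from the source. Only Bcl2a1b passed of the 10 genes, 1.54-fold higher with Ifnb1eGFP supernatant (log2 fold change 0.63, 95% interval 0.50 to 0.75, adjusted p = 0.000746, edgeR), where 0.16% of all genes passed. The other 9 differences lay between −0.21 for Bax and 0.36 for Bcl2a1a, with adjusted p from 0.302 for Bcl2l11 to 0.971 for Bcl2. At an unadjusted p under 0.05 there were 4 of the 10, as for 8.57% of all genes, with unadjusted 95% intervals of 0.03 to 0.28 for Mcl1, 0.08 to 0.28 for Bcl2l11 and −0.39 to −0.03 for Bax beside Bcl2a1b. The libraries did not overlap for 5 of the 10 genes (Bcl2a1b, Bcl2a1d, Mcl1 and Bcl2l11 higher, Bid lower), as for 12.8% of all genes. Fitted on these conditions alone, Bcl2a1b was at an adjusted p of 0.0528 and no gene passed. Of the macrophage markers, Itgam was 0.34 higher here (adjusted p = 0.00777, edgeR), and its part in the Bcl2a1b result was not tested.

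For eGFP supernatant against untreated control, in which the supernatant carried tumor cell products and possibly Dox, which cannot be told apart, without added IFNβ, Bcl2a1b again was the one gene of the 10 to pass, 1.34-fold higher (log2 fold change 0.42, 95% interval 0.30 to 0.54, adjusted p = 0.00892, edgeR), where 0.299% of all genes passed. Without replicate 1 or 2 of untreated control, its adjusted p was 0.0521 and 0.0506. The difference was 0.44 without replicate 2 of eGFP supernatant (adjusted p = 0.0351). Bcl2a1d (0.32, adjusted p = 0.238), Bcl2l11 (0.21, adjusted p = 0.115) and Mcl1 (0.18, adjusted p = 0.350) were higher without passing. For these and Bcl2a1b, 4 of the 10, no library overlapped the other condition, as for 15.5% of all genes.

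Both supernatant comparisons contribute to the difference averaged over the IFNβ states, in which 0.905% of all genes passed. Bcl2a1b (0.52, adjusted p = 0.000122, edgeR) and Bcl2l11 (0.20, adjusted p = 0.0194) were higher with supernatant. The call on Bcl2l11 was lost on leaving out any of 6 of the 12 libraries: each replicate of untreated control, replicates 1 and 3 of eGFP supernatant and replicate 1 of rIFNβ, with an adjusted p up to 0.0719. The interaction asks whether IFNβ acted differently with and without supernatant. It passed for 0 of the 10 genes and for 0% of all genes by edgeR. By DESeq2 it also passed for 0 of them, but Bcl2, Bcl2a1a and Bcl2a1d had no adjusted p there. At an unadjusted p under 0.05 by edgeR there was 1 of the 10, as for 4.4% of all genes. It was Bcl2a1b (0.21, unadjusted p = 0.0217, adjusted p = 0.926).

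**Figure D4:**
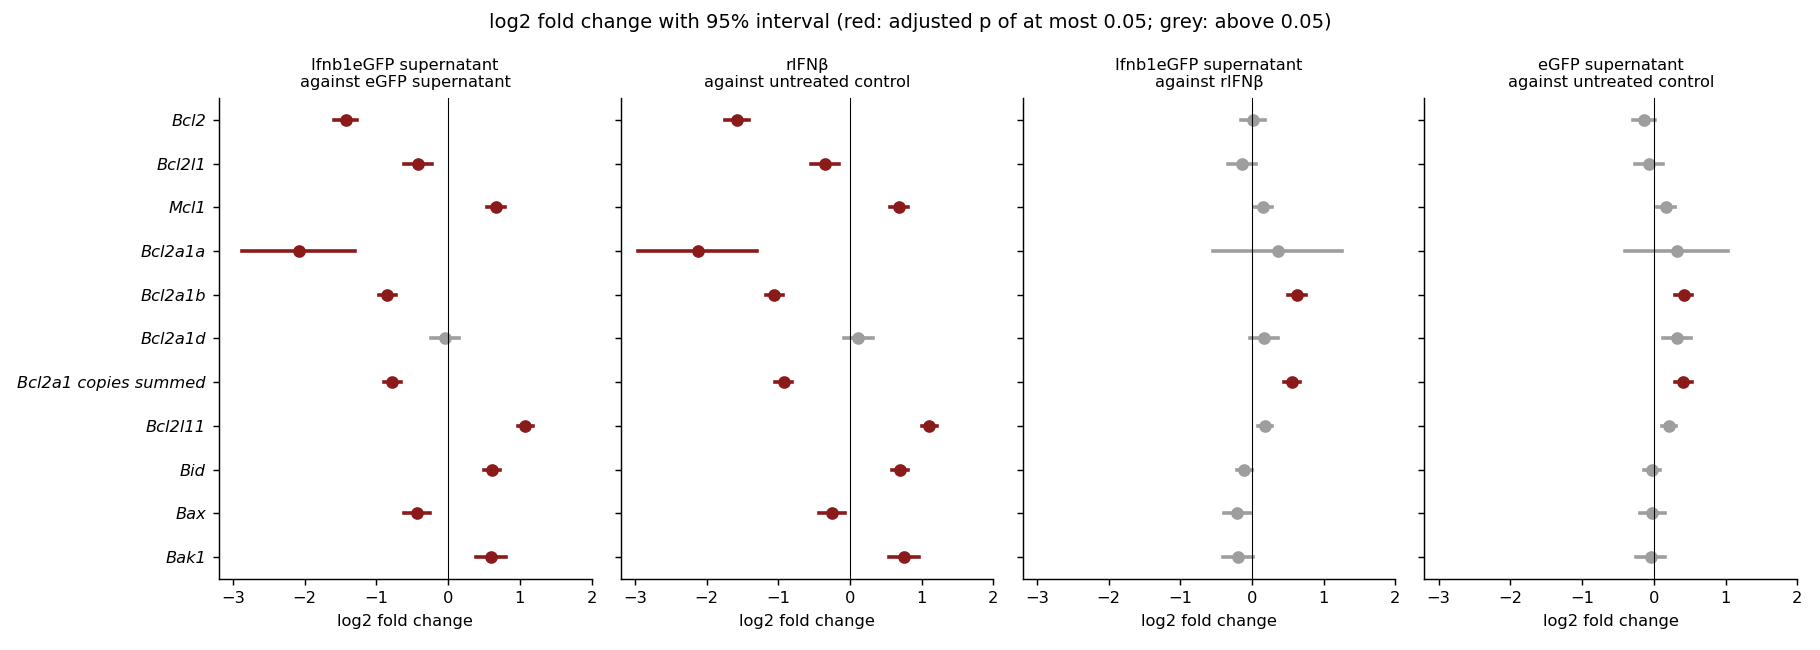
Log2 fold change (x axis) with 95% interval for the 10 genes and the summed Bcl2a1 copies (y axis) in 4 comparisons, red where the adjusted p was at most 0.05 and grey otherwise. The IFNβ comparisons on the left run from −2.13 to 1.11, and on the right only Bcl2a1b and the sum are red.

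Of 16 other BCL2 family genes, 11 had enough counts to be tested. In the 2 IFNβ comparisons 1 and 1 rose and 4 and 3 fell, with medians of −0.01 and 0.07. That is 45.5% and 36.4% called, against 55.1% and 55.3% of all genes with medians of 0.03 and 0.04. Bmf, a BH3-only gene, rose by 0.43 and 0.74 (adjusted p = 0.0168 and 0.000671, edgeR), the first of which was lost, with an adjusted p up to 0.0740, without replicate 1 or 2 of eGFP supernatant or replicate 3 of Ifnb1eGFP supernatant. Bok, an effector relative, fell by 1.75 and 1.17 from under 1 CPM, and Bnip3l, a receptor of mitophagy, fell by 0.81 and 0.86 (adjusted p = 9.19e-08 and 5.38e-08).

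Downstream of the family, 12 mitochondrial apoptosis genes were tested, 6 rose in each comparison and 3 and 2 fell, with medians of 0.20 and 0.14. The shares called, 75% and 66.7%, stand beside the same 55.1% and 55.3% of all genes. Birc2, an inhibitor of apoptosis protein, rose by 0.98 and 0.93 on the log2 scale, Cycs, the cytochrome c gene, by 0.90 and 0.77, and Birc3, a relative of Birc2, by 0.56 and 0.53. Genes that promote and genes that inhibit apoptosis were both among those that rose.

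Among 8 genes of death receptor and p53 inputs, 6 rose and 1 fell in each comparison, with medians of 0.33 and 0.40. This is 87.5% called in each, again beside 55.1% and 55.3% of all genes, of which 30.1% and 30.7% were higher. Casp8, which cleaves BID, rose by 1.04 and 1.11, and Cflar, which encodes the caspase-8 inhibitor FLIP, by 0.84 and 0.83. Tnfrsf10b, a death receptor gene, fell by 0.57 and 0.56. All of these changes passed at an adjusted p of at most 0.000464 by edgeR. In neither supernatant comparison did any gene of these lists pass.

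**Figure D5:**
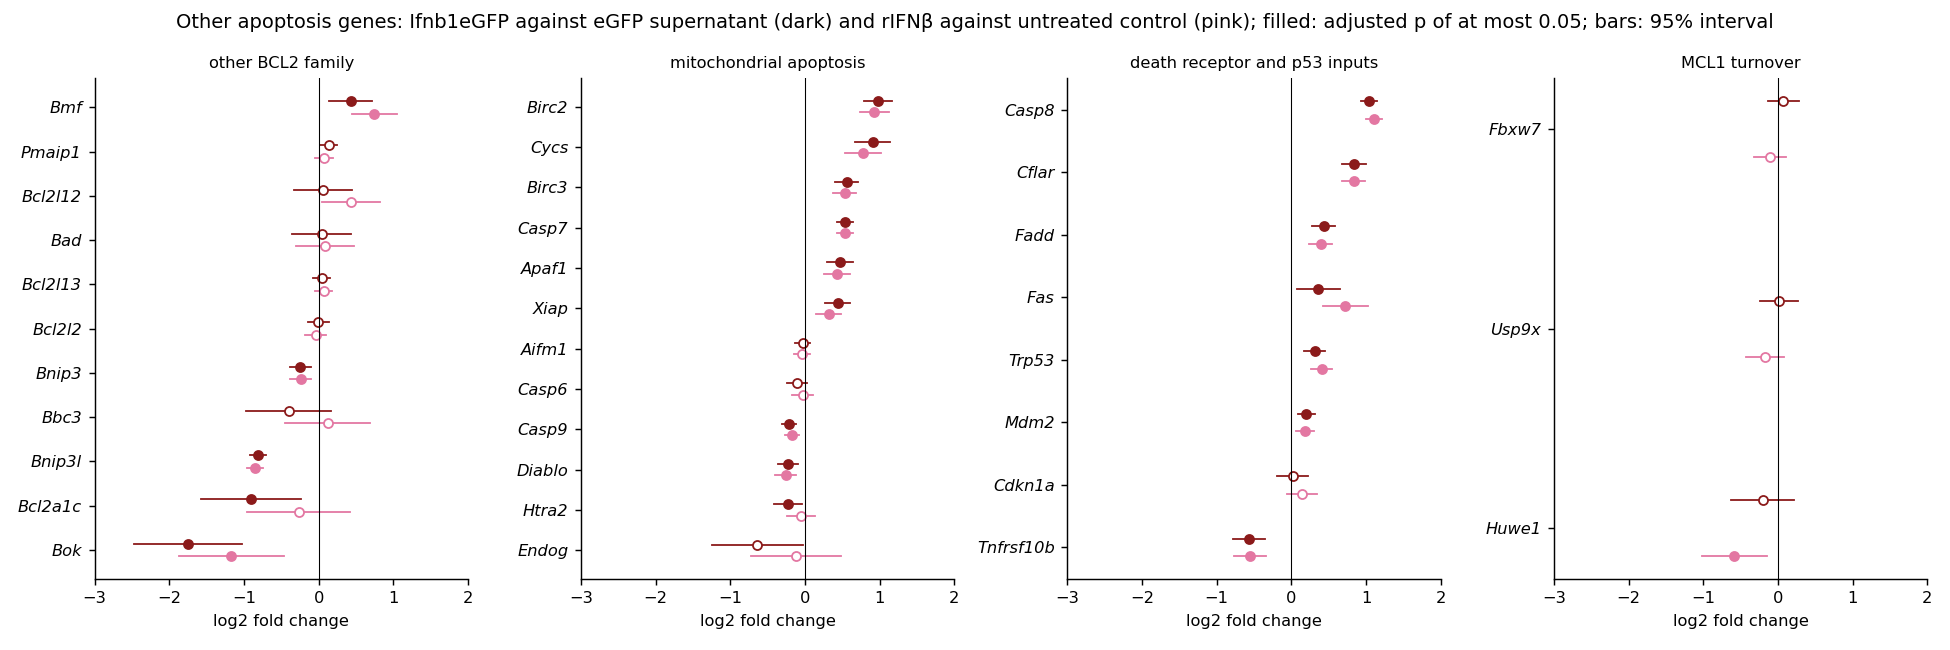
Log2 fold change (x axis) with 95% interval of the other apoptosis genes tested (y axis), in dark red for Ifnb1eGFP against eGFP supernatant and in pink for rIFNβ against untreated control, filled where the adjusted p was at most 0.05. Casp8 at 1.04 and 1.11 and Birc2 at 0.98 and 0.93 lie farthest to the right, and Bok at −1.75 and −1.17 farthest to the left.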

How the data were processed

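Bulk RNA sequencing of 12 BMDM libraries, 3 in each of 4 conditions, was analysed. From 600 ng of RNA per library (TruSeq Stranded Total RNA), the authors ran RSEM 1.3.3 and deposited unnormalized expected counts for each Ensembl gene. Reads matching more than 1 gene are divided by RSEM, and 12% of values were not whole (32% of those above 0). The submitters' notes name both GRCm39 and mm10, and the positions given here are from GENCODE M39 (GRCm39), which lists 56017 of the identifiers. Columns were matched to samples by the descriptions, and 0 had no sample.

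Counts were rounded. Genes passing filterByExpr (15033, or 15031 with the copies summed) were scaled by TMM factors in edgeR 4.0.16 (R 4.3.3). One quasi-likelihood model with 4 condition means was fitted over all 12 libraries, and p-values were adjusted by Benjamini-Hochberg over all genes tested. A gene was called if its adjusted p did not exceed 0.05. The SE is the size of the log2 fold change divided by the square root of F. Log2 CPM used a prior count of 2. An exact permutation test of 3 libraries against 3 cannot go below p = 0.1, so the model alone tested single genes. Ratios were chosen after the values of the genes were seen, and for that reason no test of them is reported. The fit was also run on data simulated from its own mean levels and dispersions, which cannot show whether its assumptions hold for these libraries. Totals of 31526034 to 45348457 counts set the precision, and at 12 counts, as for Bcl2a1a, counting error is large.

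The members, the other lists and the tests were chosen with earlier results of these data known. All members were named, and from each other list the 3 genes with the largest mean change among those called in both IFNβ comparisons. One gene of the mitochondrial apoptosis list is not reported here, and the list's counts leave it out. Huwe1, Gm29094 and Bcl2l13 were named outside this rule, after their values were seen. Gm29094 and Bcl2l13 were named because their exons overlap those of Bcl2a1b and Bid. Results were recomputed with DESeq2 1.42.0, with RLE factors, without the filter, with a replicate block, from the compared conditions alone, with a stricter call and with each library left out. Same-numbered libraries deviated alike from their condition means in part (Pearson r across genes 0.0582 to 0.252 over 18 pairs, 13 of them over 0.1), and the numbers were not taken as pairs.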

Additional observations from a re-analysis of the deposited data

How the results depend on the processing

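No called value changed sign, and of 220 alternative values of single genes in the 2 IFNβ comparisons 217 kept their call, the exceptions being Bax against untreated control without 1 of 3 libraries. The replicate block left 9, 9, 1, 1 and 0 genes called in the 2 IFNβ comparisons, between IFNβ sources, for eGFP supernatant and for the interaction, and 3 in place of 2 for supernatant averaged over IFNβ states (Mcl1 added, adjusted p = 0.0389). With the same replicate block the Bcl2a1 sum fell by 0.78 and 0.93 with IFNβ and was 0.56, 0.41 and 0.48 higher with supernatant. All 12 libraries correlated best with their own number, a hint from the data and not the design. With DESeq2, 2 genes were called between IFNβ sources and 2 for eGFP supernatant against untreated control, since Bcl2l11 was added (0.19 and 0.21, adjusted p = 0.00323 and 0.00196). For supernatant averaged over IFNβ states, DESeq2 called 3 genes, with Mcl1 added (0.173, adjusted p = 0.008915). Fitted on the compared conditions alone, 0 genes were called between IFNβ sources, and the sum was 0.57 higher at an adjusted p of 0.0906. Under the stricter call (log2 change of 2 or more in size, adjusted p not above 0.01), 1 and 1 genes were called in the IFNβ comparisons and 0 in each supernatant comparison, averaged included. Leaving out 1 library gave 9 to 9 and 8 to 9 genes in the IFNβ comparisons, 1 to 3 between IFNβ sources, 0 to 1 for eGFP supernatant, 0 to 0 for the interaction and 1 to 4 averaged. The 3 and the 4 came without replicate 2 of Ifnb1eGFP supernatant. For the 3, Bax (−0.32) and Bak1 (−0.32) were called lower than with rIFNβ. For the 4, edgeR added Mcl1 (0.18, adjusted p = 0.0438) and Bax (−0.17, adjusted p = 0.0431). The sum for eGFP supernatant ran from 0.37 to 0.44, with an adjusted p up to 0.0512 without replicate 1 of untreated control. By the longest coding transcript, levels in untreated control were 3.53 for Bcl2, 50.5 for Bcl2l1, 11.8 for Bcl2l11, 9.37 for Bid and 88.3 CPM per kb for Bax. Causes of these shifts were not tested. Few counts limit Bcl2a1a, and shared sequence limits every single Bcl2a1 copy.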

Other observations

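Over the 12 libraries, the genes whose log2 CPM followed that of the summed Bcl2a1 copies most closely were Psmd1 (Pearson r = 0.984), which encodes a proteasome subunit, Gnptab (0.982), Kif3a (0.976), Gpr34 (0.975) and Npepps (0.973). These values are a description over 12 libraries that share conditions and are given without a test. Psmd1 was at 250 CPM in untreated control, 274 with eGFP supernatant, 217 with Ifnb1eGFP supernatant and 184 with rIFNβ. Gpr34, a lysophosphatidylserine receptor of macrophages, was at 8.83, 14.2, 4.97 and 3.51 CPM in the same order, the same order of conditions as for the sum.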
